A study of Mus musculus with 2 samples.

Results

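Cluster 7 is one of 4 clusters of interstitial heart cells that the study named T cells, the others being clusters 4, 8 and 10. Its genes were taken as every gene in the deposited comparison of genotypes within that cluster, 421 genes of the 6477 distinct genes listed over 18 such cluster tables. Live nucleated interstitial cells of the ventricle were sorted and captured in droplets for single-cell RNA sequencing, giving 2 libraries, 1 per genotype. The control library came from PostnMCM mice, which carry a Cre recombinase that tamoxifen activates and that is expressed from the Postn locus. The other came from Yapfl/fl;Wwtr1fl/+;PostnMCM mice, in which both alleles of Yap and 1 allele of Wwtr1 (the gene for TAZ) can be deleted by that Cre, and it is called the library labelled depleted. Both strains carried an R26-eGFP transgene, were 8 to 10 weeks old at myocardial infarction, and ate chow with 0.4 g/kg tamoxifen, with hearts collected 6 days after infarction per the labels. The methods of the study place the collection a day later. Postn is switched on in fibroblasts that become myofibroblasts, so T cells are not the cells this Cre is meant to reach. The number of hearts behind each library is not given in the sources used here.

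T cells recognise peptides on MHC molecules through a receptor held at the membrane by the CD3 chains, and kinases such as Lck and Zap70 carry its signal inwards. Conventional T cells use αβ receptors and split into CD4 and CD8 cells, regulatory T cells carry a high-affinity IL-2 receptor that includes Il2ra, and cytotoxic T cells share with natural killer (NK) cells lectin-like surface receptors of the Klr family and the machinery of killing granules. In the infarcted heart, T cells arrive after the first wave of neutrophils and monocytes and are known to influence inflammation and scar formation.

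Each gene is given as the percentage of cluster 7 cells that held a count of it after normalization, called its share, and differences are the library labelled depleted minus the control library, in percentage points. The question of the comparison is which transcripts of the surrounding immune cells differ when Yap and Wwtr1 are targeted in myofibroblasts. With 1 library per genotype no test of genotype could be made, and cell numbers and depth of cluster 7 are not stated in the tables. The shares are therefore printed without an interval and describe these 2 libraries only. A gene entered the table only when at least 25% of the cells of one of the libraries held it and its fold change passed a limit. The listed genes were therefore chosen for differing, and a gene that is not listed has no value here. The lowest higher share among the 421 was 25.2%, which Ifi214, an interferon-inducible gene, had together with Ctla2b and Epb41l4aos. In 44 genes the 25% limit was reached in the library labelled depleted alone, so that they could be listed only as higher, and in 75 it was reached in the control library alone, so that they could be listed only as lower. The other 302 reached it in both. The same limit holds for the other cluster tables, so a sign given for a gene under 25% in one library there was fixed in the same way.

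The T cell name is the study's, and it could be checked here on few markers, because most T cell genes did not enter the table. Of 23 T cell identity genes, 5 were listed. Cd3d, a CD3 chain, had a share of 96% in the control library and 95% in the library labelled depleted. Cd3g, another CD3 chain, had shares of 96% and 96.9%. Nearly every cell of the cluster thus held CD3 transcripts in both libraries, and the libraries differed there by at most 1 point. As a measure of stray transcripts, shares in 4 fibroblast subclusters, which should lack T cell genes, were 7.5 to 13% for Cd3d in the control library and 9.4 to 42.9% in the library labelled depleted, without depths to set beside them. Cd8b1, the β chain of CD8, had shares of 14.1% and 26.4% in cluster 7, but 0 to 10% and 20 to 28.6% in the fibroblast subclusters, so its level in cluster 7 was not above that in cells that should lack it in the library labelled depleted, and its difference is not read as one between T cells. Cd3e, Cd4, Cd8a and the receptor constant genes Trac, Trbc1 and Trbc2 were not listed. Of 16 γδ T cell and innate lymphoid genes 1 was listed, and none of the 16 B cell, 12 endothelial, 8 erythroid or 14 cardiomyocyte markers was.

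Most listed genes had a lower share in the library labelled depleted. The share was lower for 284 genes (67.5% of those listed), higher for 114 (27.1%) and equal for 23 (5.46%), all 23 of which stood at 100% in both libraries. At a difference of at least 10 points, 188 genes were lower, 44.7% of the listed genes, and 76 were higher, 18.1%. Among the 302 genes that reached 25% in both libraries, 120 were lower (39.7%) and 39 higher (12.9%) by at least 10 points. At 20 points the numbers were close to each other, with 23 lower and 22 higher. The median of the differences by gene was -8.5 points, and the median share was 49.5% in the control library and 43.4% in the other. Centred on that median, 35 genes were lower and 108 higher by at least 10 points, a scale on which equal numbers of genes lie on either side by construction and which does not bear on the predominance of lower shares. The other T cell clusters leaned otherwise on the uncentred scale. In cluster 4, 55.6% of 450 listed genes were higher by at least 10 points and 12.7% were lower, in cluster 8 40.5% of 543 were higher and 27.1% lower, and in cluster 10 43.8% of 1691 were higher and 34.6% lower. All 4 clusters come from the same 2 libraries. Depth per cell in each cluster is unknown, and its part in these splits was not tested.

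**Figure D1:**
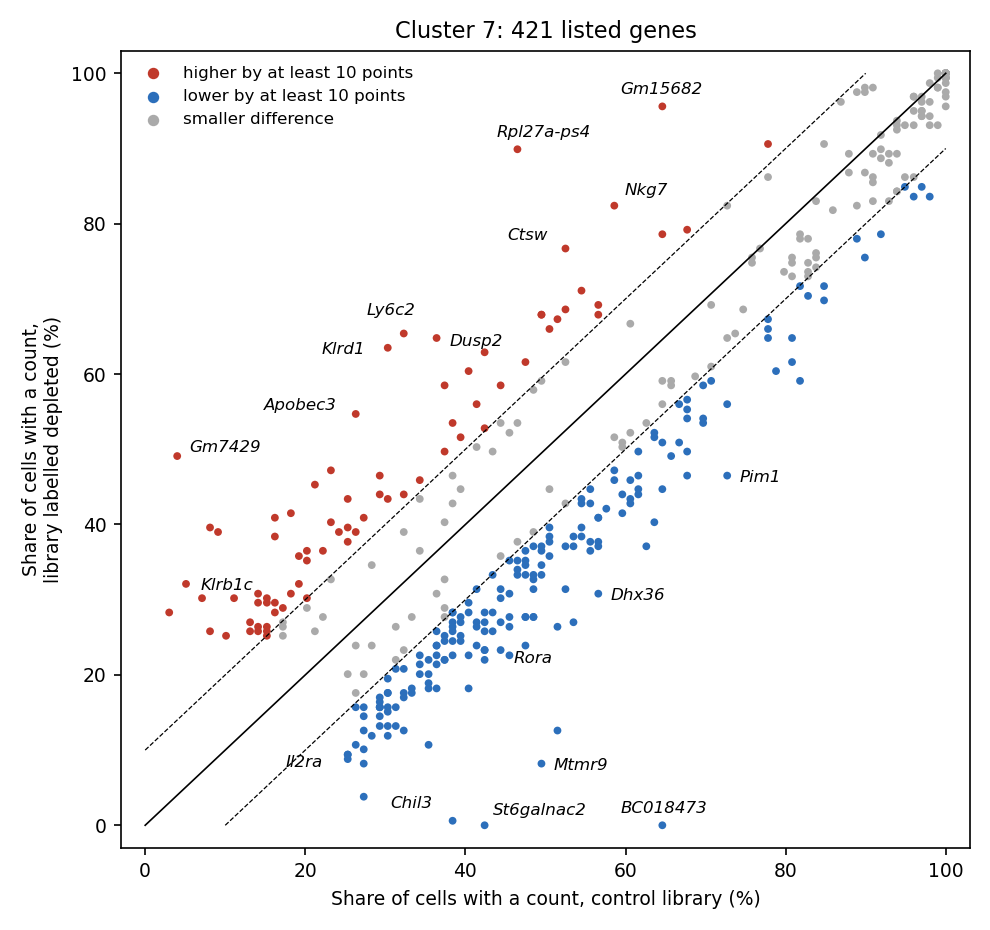
Each point is 1 of the 421 genes listed for cluster 7, with the share of cells holding a count in the control library (percent, horizontal) against that in the library labelled depleted (percent, vertical). The solid line marks equal shares and the dashed lines a difference of 10 points; 188 genes lie below the lower dashed line or on it and 76 above the upper one or on it, with BC018473 and St6galnac2 at 0% in the library labelled depleted.

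Of 22 genes of cytotoxic T cells and NK cells 8 were listed, each with a higher share in the library labelled depleted, beside 27.1% of all listed genes. For 4 of the 8, Klrk1, Klrb1c, Klre1 and Xcl1, that direction was fixed by the limit, since they reached 25% of cells in that library alone. The other 4, Klrd1, Ctsw, Nkg7 and Ccl5, reached 25% in both libraries and could have been listed in either direction, and all but Ccl5 were higher by at least 10 points, beside 12.9% of the 302 genes that reached 25% in both. With so few genes the counts are a description and are not read as a property of the list. The 14 others, which include the granule proteins Gzma, Gzmb and Prf1 and the NK cell receptor Ncr1, were not listed.

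Among the receptors, Klrd1, which encodes CD94, the common partner of the NKG2 receptors, had a share of 30.3% in the control library and 63.5% in the library labelled depleted. Klrk1, which encodes the activating receptor NKG2D, had shares of 16.2% and 38.4%. Klrb1c, which encodes the NK cell marker NK1.1, had 5.1% and 32.1%. Of these 3 receptors, Klrd1 alone was above 25% in both libraries, and Klrb1c was rare in the control library. Klre1, a lectin-like receptor that can associate with other members of the family, had shares of 14.1% and 30.8%. Klra9, a Ly49 receptor that was not in the list, had 7.1% and 30.2%. Ly49 genes are similar in sequence, and reads may be split among them, so the identity of Klra9 as the source is uncertain.

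Of the effector genes, Nkg7, a granule membrane protein needed for degranulation, had a share of 58.6% in the control library and 82.4% in the library labelled depleted. Ctsw, a protease of cytotoxic lymphocytes, had shares of 52.5% and 76.7%. Xcl1, a chemokine that attracts cross-presenting dendritic cells, had 23.2% and 40.3%. Ccl5, a chemokine of memory and cytotoxic T cells, had 49.5% and 59.1%, the smallest difference of the 8, at 9.6 points. Runx3, a transcription factor of the cytotoxic lineage that was named after its value was seen, had shares of 49.5% and 67.9%. In the fibroblast subclusters the shares of Klrd1, Klrk1, Nkg7 and Ctsw did not exceed 7.5% in either library, below their shares in cluster 7. Ccl5 reached 17.4 to 27.5% there in the control library and 4.8 to 10% in the other, the opposite order to cluster 7. Klrb1c, Klre1, Klra9 and Xcl1 were not in the fibroblast tables, so no such comparison was had for them. Whether more cells of a cytotoxic kind or more transcripts per cell lie behind these shares cannot be told apart from the tables.

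**Figure D2:**
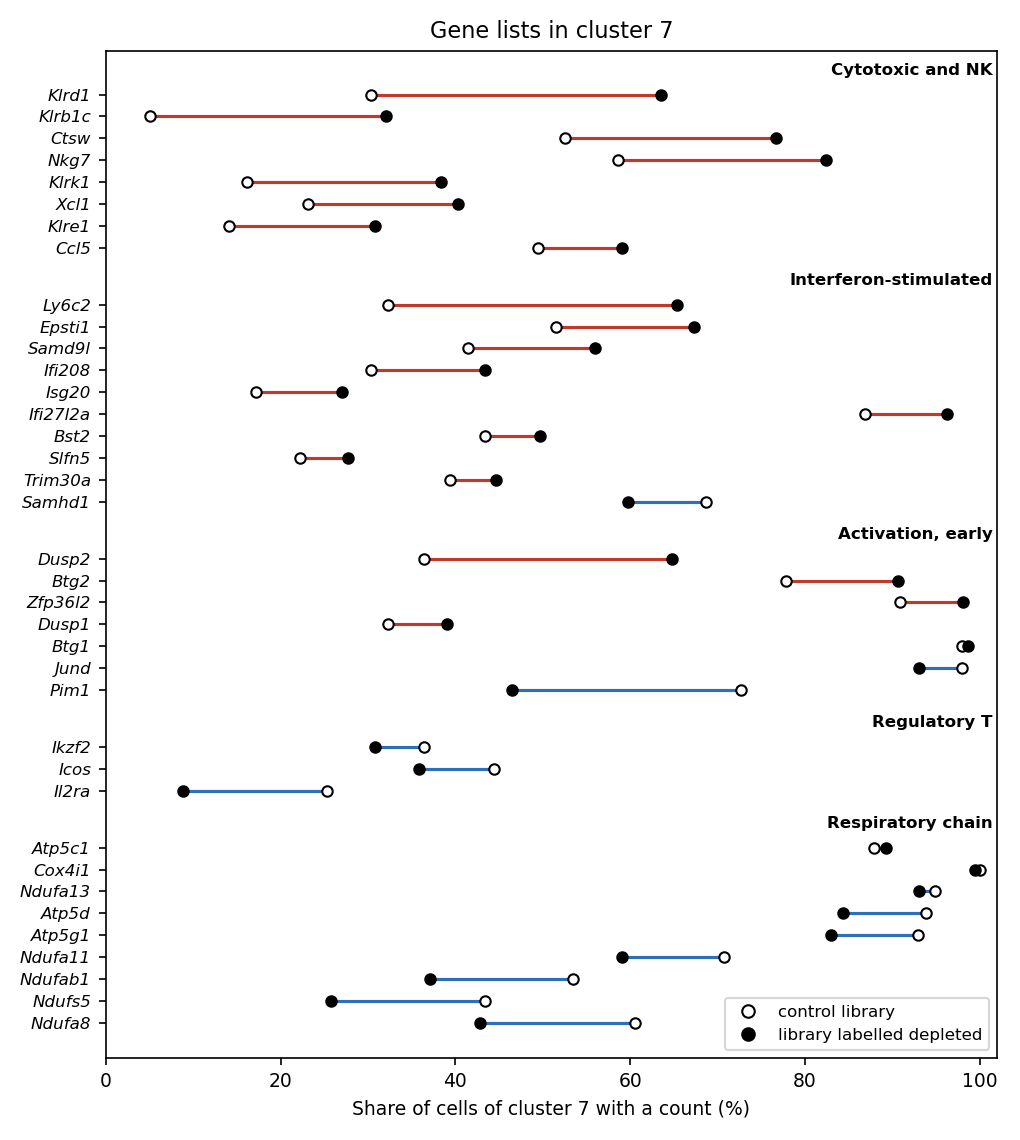
For 5 of the gene lists, each line joins the share of cluster 7 cells with a count (percent) in the control library (open circle) to that in the library labelled depleted (filled circle), red where it is higher there and blue where it is lower. The 8 listed cytotoxic and NK cell genes point to higher shares, 4 of them from under 25% in the control library, 9 of 10 interferon-stimulated genes do so too, and the 3 regulatory T cell genes and 8 of 9 respiratory chain genes point to lower shares.

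Klre1, Klrd1 and Klrk1 are neighbours. In the GENCODE annotation of GRCm39 they lie within 46 kb of chromosome 6, from 129554868 to 129600827, in the gene complex of NK cell receptors, and they are the 3 protein-coding genes of that span. Klrb1c lies at 128755448 to 128766178 and Klra9 at 130155636 to 130171258 of the same chromosome. Among 253 genes with a difference of at least 10 points and a position, 6 runs of at least 3 genes lay with gaps of no more than 500 kb, 19 genes in all, and the Klr run was the one of these 6 in which every gene had a higher share. Klre1 and Klrk1 could be listed only as higher. In another run on chromosome 6, from 48624143 to 48824005, all 3 genes had a lower share, namely Gimap8, a GTPase of lymphocytes, at 53.5% and 38.4%, and the membrane protein genes Tmem176b, at 42.4% and 28.3%, and Tmem176a, at 27.3% and 10.1%.

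The promoters of these genes are shown because Runx3 was among the genes with higher shares and RUNX factors bind a known core, TGTGGT, read on either strand as TGTGGT or ACCACA. The motif was chosen after the value of Runx3 was seen. Of the 8 listed cytotoxic and NK cell genes, 5 matched an entry in the RefSeq promoter table (GRCm38.p6, 250 bases before to 50 after the start), with 6 windows because Klre1 has 2 overlapping ones. The core occurred once in 5 of these 6 windows, and it occurs in 16.8% of the 32851 windows of the table. All of these genes but Nkg7 could be listed only as higher, and the motif was chosen late, so no enrichment is read from this. The windows that hold it read as follows, 5′ to 3′ on the gene's strand, with the core in capitals.
Klrb1c, chr6:128788592-128788891, minus strand: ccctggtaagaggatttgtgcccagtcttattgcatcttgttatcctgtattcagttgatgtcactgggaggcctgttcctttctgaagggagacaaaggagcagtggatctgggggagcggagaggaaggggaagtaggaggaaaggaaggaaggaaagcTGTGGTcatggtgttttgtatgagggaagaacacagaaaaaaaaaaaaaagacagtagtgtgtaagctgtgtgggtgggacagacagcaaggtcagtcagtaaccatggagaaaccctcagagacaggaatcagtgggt
Klre1, chr6:129577963-129578262, plus strand: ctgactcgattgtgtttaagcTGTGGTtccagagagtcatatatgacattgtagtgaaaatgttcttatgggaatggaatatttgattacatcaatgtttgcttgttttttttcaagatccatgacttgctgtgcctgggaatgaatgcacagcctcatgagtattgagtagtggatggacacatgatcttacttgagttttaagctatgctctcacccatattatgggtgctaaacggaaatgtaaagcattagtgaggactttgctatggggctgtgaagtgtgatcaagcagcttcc
Klrk1, chr6:129623815-129624114, minus strand: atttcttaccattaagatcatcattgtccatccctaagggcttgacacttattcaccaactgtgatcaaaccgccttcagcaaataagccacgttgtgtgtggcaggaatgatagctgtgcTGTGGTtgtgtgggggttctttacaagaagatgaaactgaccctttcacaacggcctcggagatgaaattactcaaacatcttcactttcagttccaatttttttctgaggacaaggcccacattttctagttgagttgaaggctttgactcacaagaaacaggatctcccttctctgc
Nkg7, chr7:43436888-43437187, plus strand: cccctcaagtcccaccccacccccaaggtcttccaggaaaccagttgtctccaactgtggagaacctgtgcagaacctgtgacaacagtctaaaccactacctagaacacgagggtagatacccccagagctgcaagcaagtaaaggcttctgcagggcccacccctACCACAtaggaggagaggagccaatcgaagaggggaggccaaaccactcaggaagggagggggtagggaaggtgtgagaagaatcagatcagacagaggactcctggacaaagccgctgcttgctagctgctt
Xcl1, chr1:164935473-164935772, minus strand: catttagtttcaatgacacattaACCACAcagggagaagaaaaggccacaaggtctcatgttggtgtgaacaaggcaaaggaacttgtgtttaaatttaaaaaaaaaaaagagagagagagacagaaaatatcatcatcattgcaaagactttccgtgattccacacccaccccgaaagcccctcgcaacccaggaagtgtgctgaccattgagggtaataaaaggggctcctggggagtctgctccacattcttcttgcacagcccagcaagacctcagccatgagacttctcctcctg

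The match to these letters is a description of the sequence and does not show that a factor binds there. Klrd1, Ctsw and Ccl5 had no entry in the table.

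Genes of the T cell receptor signal had shares that differed in both directions. Of 26 such genes 5 were listed, 3 higher and 2 lower. Ptpn22, a phosphatase that restrains receptor signalling, had a share of 54.5% in the control library and 71.1% in the library labelled depleted. Ptpn6, the phosphatase SHP-1, had shares of 52.5% and 61.6%. The lower ones were the kinase Zap70, which binds the phosphorylated CD3 and ζ chains, at 47.5% and 36.5%, and Rasgrp1, which activates Ras downstream of the receptor, at 38.4% and 28.3%. Ubash3b, another phosphatase that restrains the receptor, is in none of the lists used and had shares of 13.1% and 25.8%, not above its shares in the fibroblast subclusters, which were 10 to 17.4% and 4.8 to 30.4%. Ptpn6 stood there at 20 to 27.6% and 10 to 30.4%, below its shares in cluster 7. Ubash3b was listed for cluster 7 alone.

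Few markers of regulatory and innate-like T cells were listed. Of 16 regulatory T cell genes 3 were, all lower in the library labelled depleted, beside 67.5% of all listed genes, and 1 of the 3 was lower by at least 10 points, beside 44.7%. With so few genes this lean is not set apart from that of the whole table. Il2ra, the α chain of the IL-2 receptor, had a share of 25.3% in the control library, just past the limit, and 8.8% in the other, so it could be listed only as lower. Icos, a costimulatory receptor, had shares of 44.4% and 35.8%, and Ikzf2, the transcription factor Helios, had 36.4% and 30.8%. On the centred scale Ikzf2 was higher, by 2.9 points. Ikzf2 also reached 4.3 to 32.5% and 4.8 to 30% in the fibroblast subclusters, so its level in cluster 7 is not well above that background. Foxp3 and Ctla4 were not listed. Izumo1r, which encodes folate receptor 4, known from regulatory and anergic T cells, was outside the lists and had shares of 30.3% and 19.5%. Like Il2ra, it could be listed only as lower.

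Rora, a nuclear receptor of innate lymphoid and type 17 cells, had a share of 44.4% in the control library and 23.3% in the library labelled depleted. Fibroblasts express it too, at 46.7 to 69.6% and 47.8 to 68.8% of cells in their subclusters, and in the fibroblast cluster 5 its share was higher in the library labelled depleted, at 54% against 40.9%. Cxcr6, a chemokine receptor of tissue-homing T cells, had shares of 59.6% and 50.9% in cluster 7. Tnfrsf25, the death receptor DR3, had 27.3% and 8.2%, and Cd226, an activating adhesion receptor, had 69.7% and 53.5%. Tnfrsf25 could likewise be listed only as lower. Il2ra, Icos, Izumo1r, Cxcr6 and Tnfrsf25 were each listed in no other cluster.

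The activation and immediate early genes differed in both directions. Of 30 genes 7 were listed, 5 higher and 2 lower, beside 27.1% higher and 67.5% lower over all listed genes. At 10 points 2 were higher and 1 was lower. Dusp2, a nuclear phosphatase of MAP kinases induced by activation, had a share of 36.4% in the control library and 64.8% in the library labelled depleted. It was also listed as higher in cluster 4, at 20.4% and 38.3%, and in cluster 8, at 36.3% and 56.2%. Pim1, a kinase induced by cytokines, had shares of 72.7% and 46.5%. Pim1 was lower too in cluster 4, at 62.6% and 32.2%, and in cluster 8, at 52.6% and 22.9%, while it was higher in the library labelled depleted in 4 other cluster tables. Dusp2 in cluster 4 and Pim1 in cluster 8 reached 25% in one library alone, so their signs there were fixed by the limit, and the clusters share both libraries. Btg2, an antiproliferative early gene, had 77.8% and 90.6%, Zfp36l2, an mRNA decay factor, had 90.9% and 98.1%, and Dusp1 had 32.3% and 39%. Jund, lower on the uncentred scale at 98% and 93.1%, was higher by 3.6 points when centred.

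Most of the listed interferon-stimulated genes had higher shares. Of 77 genes 10 were listed, 9 higher and 1 lower, 4 of them higher by at least 10 points, beside 27.1% higher and 18.1% higher by at least 10 points over all listed genes. Isg20 and Slfn5 reached 25% of cells in the library labelled depleted alone and could be listed only as higher. Ly6c2, a surface protein of memory CD8 T cells and inflammatory monocytes, had a share of 32.3% in the control library and 65.4% in the library labelled depleted. Epsti1 had shares of 51.5% and 67.3%, and Samd9l, an antiviral restriction factor, had 41.4% and 56%. The other 6 higher genes differed by 5.3 to 13.1 points. The lower one was Samhd1, which degrades nucleotides, at 68.7% and 59.7%. Ly6c2 and members of the Ifi and Trim families have close copies, so their reads may be shared. In the NK cell cluster 14, Ly6c2 had shares of 30.4% and 53.8%, and in the fibroblast subclusters it stayed at or below 18.6%. Apobec3, an antiviral cytidine deaminase not in the list, had 26.3% and 54.7%, and it was listed as higher in 13 other cluster tables.

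MHC genes were few. H2-Q6, a non-classical class I gene, had a share of 37.4% in the control library and 58.5% in the library labelled depleted, and H2-T10, another, was higher by 17.7 points. H2-T23, which encodes Qa-1, the ligand of the CD94 receptors, had shares of 88.9% and 78%. Class I genes are close copies of each other, and reads of one may be counted for another. Of the peptide-loading genes, Pdia3 had 96% and 83.6% and Calr 91.9% and 88.7%, the latter higher by 5.3 points when centred. H2-Ab1 was the one listed class II gene of 10, at 64.6% and 56%.

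Listed genes of the respiratory chain, glycolysis and chaperone lists mostly had lower shares in the library labelled depleted, as had 67.5% of all listed genes. Of 106 nuclear-encoded respiratory chain genes 9 were listed, 8 lower and 1 higher, with 4 lower by at least 10 points, about the 44.7% of all listed genes. The higher one was Atp5c1, a subunit of the ATP synthase, at 87.9% and 89.3%. Ndufa8 had a share of 60.6% in the control library and 42.8% in the other, Ndufs5 43.4% and 25.8%, Ndufab1 53.5% and 37.1%, and Ndufa11 70.7% and 59.1%. These 4 encode subunits of complex I. Atp5g1 and Atp5d, of the ATP synthase, had 92.9% and 83%, and 93.9% and 84.3%. The 3 listed glycolysis genes, of 16, were lower by 3.1 to 9.8 points, none by 10, and included Ldha, lactate dehydrogenase A, at 96% and 86.2%. Pkm, the smallest of these differences, was higher by 5.4 points when centred. Of 17 chaperone genes 2 were listed, Cct2 at 77.8% and 67.3% and Cct3 at 49.5% and 33.3%, both subunits of the chaperonin that folds actin and tubulin. Dnajc15, a co-chaperone outside the list, had 42.4% and 62.9%, the opposite order. These counts are small and lean the way the whole table does.

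Abundant genes could hardly differ in this measure. In 45 genes the share was at least 95% in both libraries, and there the difference did not exceed 4.4 points. Of 13 listed ribosomal protein genes 12 stood at 100% in both libraries, and Rps6 had shares of 93.9% and 93.1%. Of 10 listed actin cytoskeleton genes 4, among them Actb and Tmsb4x, stood at 100% in both, and the other 6 were lower by 0.6 to 5.9 points, a direction that turned on centring. Of 25 effector and memory adhesion genes 12 were listed, with a median difference of -1.45 points that became 7.05 when centred. Anxa1, annexin A1, was the lowest of them at 41.4% and 31.4%. A share near 100% does not show that the level per cell was equal.

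None of the listed genes came from the cell cycle list, from the targeted genes or from the list of their known targets. Of 29 cell cycle genes, 6 targeted and reporter genes (Yap and Wwtr1 among them), and 23 YAP and TAZ target genes, none entered the table of cluster 7. Pttg1, the securin of mitosis, was outside that list and had shares of 11.1% and 30.2%. The unlisted genes either did not reach the share or did not reach the fold limit, and which of the 2 applied is not known. The deletion was therefore not checked in these cells.

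Some transcripts of other cell types were listed, and like most of the table, of which 67.5% was lower, they mostly had lower shares in the library labelled depleted. S100a8 and S100a9, the calprotectin subunits of neutrophils, had shares of 63.6% and 67.7% in the control library and 40.3% and 46.5% in the other, and they were the listed 2 of 20 neutrophil markers. Chil3, a secreted protein of myeloid cells and one of 4 listed macrophage and monocyte markers of 30, had 38.4% and 0.6%. Ctsd, a lysosomal protease of the same list that many cells use, went the other way, at 88.9% and 97.5%. The other 2 of that list hardly differed, Tyrobp at 75.8% and 74.8% and Ftl1 at 100% and 99.4%. Bst2, an interferon-stimulated gene and the one listed of 14 dendritic cell markers, had 43.4% and 49.7%. Col3a1, a fibrillar collagen and the one listed of 18 fibroblast markers, had 32.3% and 12.6%. S100a8, S100a9, Chil3 and Col3a1 are genes T cells are not known for, and they were detected in a sizeable part of the control cells of the cluster. In fibroblast subclusters S100a8 stood at 78.3 to 91% in the control library and 40 to 71.4% in the library labelled depleted, and Chil3 at 43.5 to 80% and 0 to 9.4%. S100a9 was listed as lower in 12 other cluster tables, Chil3 in 13 and Col3a1 in 8. S100a8, S100a9 and Chil3 thus had lower shares in most of the cluster tables that list them, and their part in any other gene's difference was not tested. The myeloid genes Lyz2, Csf3r and Csf1r were not listed in cluster 7.

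A small set of genes differed in the same direction in many clusters. In 24 of the 421 genes, 5.7%, at least 9 of the 17 other cluster tables listed a difference of the same sign, 15 higher and 9 lower in the library labelled depleted. In 12 of the 24 this held for at least 12 other tables. The limit fixed many of these signs. For 10 of the 24 at least 9 other tables of the same sign had shares past 25% in both libraries, while for 3, Ftl1-ps2, Gm7429 and BC018473, none had, so the number of tables with their sign is no evidence of its own. They included 7 pseudogenes. Ftl1-ps2, a processed copy of the ferritin light chain gene, had a share of 3% in the control library and 28.3% in the other, and it was higher in all 17 other tables. Rpl27a-ps4 had shares of 46.5% and 89.9% and Gm15682 64.6% and 95.6%, each higher in 16 other tables. Gm7429, at 4% and 49.1%, had the largest positive difference of cluster 7 and was higher in 13 others. Processed pseudogenes share sequence with their parent genes, so the source of these reads is uncertain. Rps6 and Polr2k, an RNA polymerase subunit, belong to the same set, the latter at 25.3% and 39.6% and higher in 14 others. Rpl34-ps1, at 9.1% and 39%, was higher in 15 others. St3gal4, a sialyltransferase, had 16.2% and 40.9% and was higher in 13 others and lower in 1, at a difference of -0.1 points. Among the lower genes of the set, the pseudogene Gm12191 had 43.4% and 28.3% and was lower in 13 others. Wdr83os, a factor of membrane protein insertion, had 47.5% and 27.7%, and Gadd45gip1, a mitochondrial ribosome protein, had 36.4% and 18.2%, each lower in 11 others.

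The largest negative difference was of this kind too. BC018473, a long non-coding RNA, had a share of 64.6% in the control library and 0% in the library labelled depleted. In the 15 other tables that list it, its share was 29 to 100% in the control library and 0 to 1.1% in the other. In the fibroblast subclusters it stood at 2.5 to 8.7% in the control library and 0% in the other. St6galnac2, a sialyltransferase, had 42.4% and 0%, and it was at 0% in the library labelled depleted in both other tables that list it, clusters 11 and 14, against 38.2% and 35.4% in the control library. Those signs were fixed by the limit, and in the fibroblast subclusters, which carry no limit, it stood at 0 to 13% in the control library and 0 to 28.6% in the other. Both genes lie in a run on chromosome 11 of GRCm39, from 116566129 to 116745089, with the methyltransferase gene Mettl23, which had the opposite difference, at 18.2% and 41.5%, and was higher in 10 other tables. The span of 179 kb holds 6 protein-coding genes, and St6galnac2 has 2 gene entries there that overlap. Mtmr9, a myotubularin-related protein, at 49.5% and 8.2%, and the non-coding 5033421B08Rik, at 51.5% and 12.6%, were lower in 6 and 7 other tables and higher in none. In the fibroblast subclusters Mtmr9 stood at 30.4 to 53.3% and 34.4 to 52.4%, and 5033421B08Rik at 87 to 100% and 95.7 to 100%. These ranges overlap between the libraries, and the subclusters were not compared 1 by 1. Ppdpf, at 53.5% and 27%, and the brain-type creatine kinase Ckb, at 35.4% and 10.7%, were each lower in 5 others and higher in 1.

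**Figure D3:**
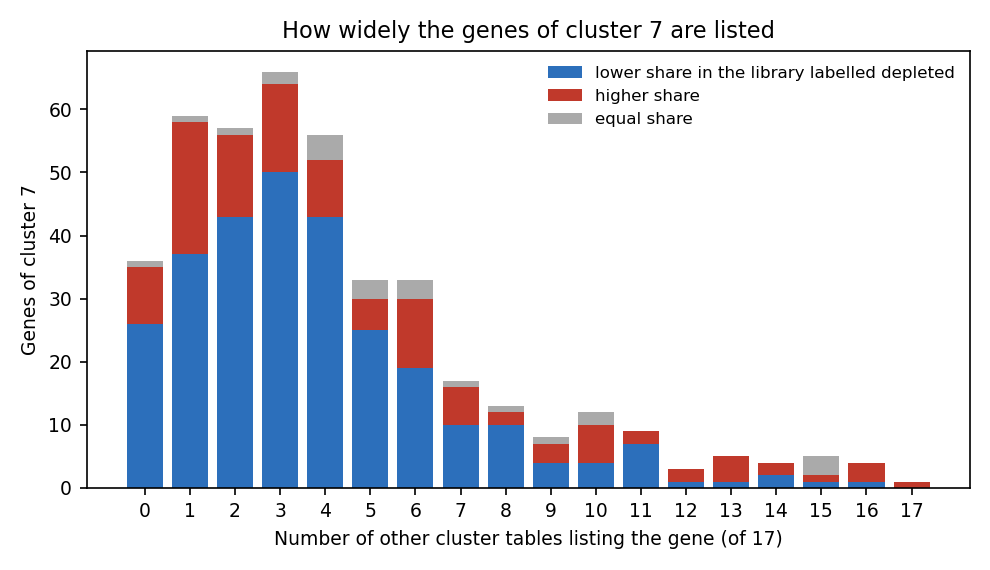
The bars count the 421 genes of cluster 7 by the number of the other 17 cluster tables that list the gene, split by whether its share in the library labelled depleted was lower, higher or equal in cluster 7. The bars lean to the left, with a median of 3 other tables, 36 genes in none and 51 genes in 9 or more.

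At the other end, 36 genes, 8.55%, were listed in cluster 7 and in no other cluster table, 26 lower, 9 higher and 1 equal. Of these, 23 were lower and 8 higher by at least 10 points. The higher ones began with Klra9, Xcl1 and Klre1, given above, followed by Ifitm10 at 15.2% and 29.6%, which is within its range in the fibroblast subclusters, Ifi208 at 30.3% and 43.4% and Ubash3b. Each of these but Ifi208 was under 25% in the control library and could be listed only as higher. The lower ones began with Dhx36, a helicase that unwinds G-quadruplexes, at 56.6% in the control library and 30.8% in the library labelled depleted, followed by Tnfrsf25. Tspan32, a tetraspanin of blood cells, had shares of 41.4% and 23.9%, Wapl, which releases cohesin from chromatin, 60.6% and 43.4%, and Srpk1, a kinase of splicing factors, 65.7% and 49.1%. Il2ra closed the 6 lowest. Of these, Tnfrsf25, Tspan32 and Il2ra were under 25% in the library labelled depleted and could be listed only as lower. To be listed in 1 table says only that the limits were not passed elsewhere. In many clusters a T cell gene would not reach the 25% limit, and the difference between clusters was not tested.

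The rest lay between. By number of other tables, 238 genes were listed in 1 to 4, 96 in 5 to 8 and 51 in 9 or more. In 67 genes other tables listed the gene but never with the same sign, equal shares included. Nkg7 was one, with shares of 83.6% and 77.1% in cluster 8 and 47.1% and 31.2% in cluster 9. Ptpn22 was another, at 59.5% and 38.5% in the NK cell cluster 14. The lower shares of Tomm22, a part of the import pore of mitochondria, at 62.6% and 37.1%, Ech1, an enzyme of fatty acid breakdown, at 51.5% and 26.4%, and Surf4, a cargo receptor of the endoplasmic reticulum, at 47.5% and 23.9%, had the opposite sign in each of the other 1 to 3 tables that list them.

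The genes of cluster 7 overlapped with those of the other T cell clusters to an extent within the range seen for other cells. Cluster 7 shared 83 genes with cluster 4, which is 19.7% of the genes of cluster 7 and 18.4% of those of cluster 4. It shared 104 with cluster 8, 24.7% and 19.2%, and 137 with cluster 10, 32.5% and 8.1%. The 14 clusters outside these 4 include cluster 6, where the study proposes dividing T cells from proliferation markers. Over the 14, the shared genes made up 12.8 to 35.2% of cluster 7 and 7.73 to 35.2% of the other cluster. These ranges hold the values of the 3 T cell clusters. In all, 221 of the 421 genes were listed in at least 1 of the 3 and 21 in each of them, while 200 were in none. Of the cytotoxic genes, Ctsw was listed in cluster 4, at 13.8% and 28.7%, and Nkg7 in cluster 8, as given above, and none of the 8 in cluster 10. Outside the T cell clusters, Klrb1c was listed in the NK cell cluster 14, at 73.4% and 100%, and Ccl5 there at 100% in both libraries. Ccl5 was also listed in the neutrophil cluster 18, at 27.3% and 0%, where it could be listed only as lower. Klrd1 was listed in cluster 11, of the macrophages and monocytes, at 22.2% and 68.8%, and in cluster 15, which has no name in the study, at 50% and 81.8%, and Klrk1 in cluster 11 at 1.4% and 41.7%. In cluster 11 both were under 25% in the control library and could be listed only as higher. The part of these transcripts in the differences of cluster 7 was not tested.

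**Figure D4:**
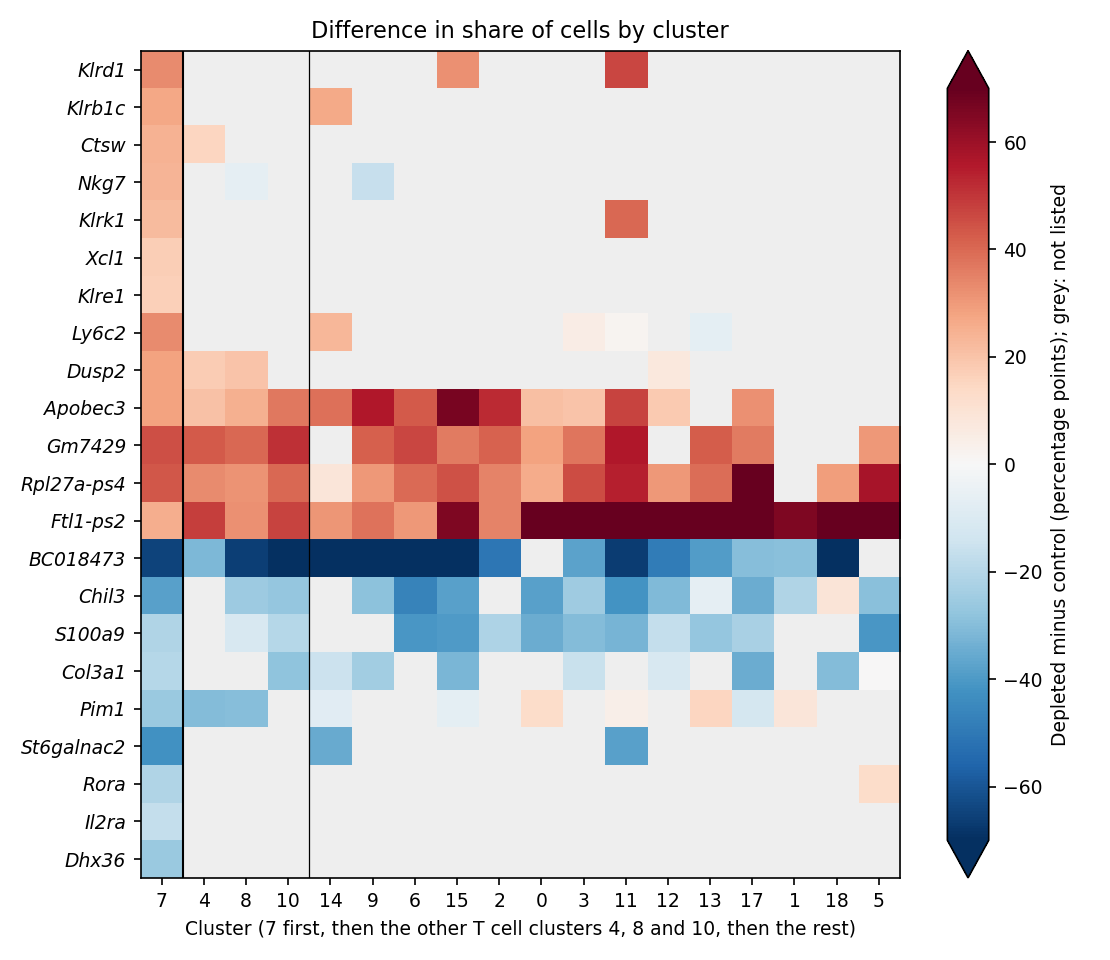
Colours give the difference in share of cells (library labelled depleted minus control, percentage points, red higher, blue lower, colours held at 70 points in either direction) for 22 genes in cluster 7, in the T cell clusters 4, 8 and 10, and in the other 14 clusters, and grey marks a gene that a table does not list. The cytotoxic genes at the top and Rora, Il2ra and Dhx36 at the bottom are grey in most clusters, while Ftl1-ps2 is red in all 18 columns and BC018473 blue in 16.

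In 36 genes a difference of at least 10 points in cluster 7 met one of at least 10 points and the opposite sign in cluster 4, 8 or 10, in 8, 6 and 24 genes respectively. Ms4a6c, a membrane protein of the MS4A family, had shares of 56.6% and 69.2% in cluster 7, but 84.6% and 69.1% in cluster 4 and 74.9% and 64.6% in cluster 8. Efhd2, an actin-binding calcium sensor, had 50.5% and 66% in cluster 7 and 25.7% and 10.4% in cluster 8. Hif1a, the oxygen-sensing transcription factor, had 39.4% and 27.7% in cluster 7 and 21.1% and 36.5% in cluster 4. The pairs with cluster 10 rest on few distinct control values, since the control shares of cluster 10 took 12 distinct values over 1691 genes, where those of cluster 7 took 94.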

How the data were processed

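Cells of 2 libraries (10x Chromium 3′ chemistry, 1 library per genotype) were analysed from the authors' deposited tables. Per the methods and labels, the authors aligned reads with Cell Ranger 6.1.1 to GRCm39 with added reporter sequences, joined the libraries without depth normalization, removed genes found in fewer than 20 cells, low-quality clusters and outlying cells, normalized with SCTransform in Seurat while regressing out the mitochondrial share, and clustered. No doublet caller is named, so doublets may remain.

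Each of the 18 cluster tables holds, per gene, the fraction of cells with a count in either library. These deposited fractions, written by the authors per cluster and library, were multiplied to percent and subtracted. Per the authors' code, genes below 25% of cells in both libraries or below 0.25 in log2 fold were left out, and the 25% limit was checked on the fractions. The tables also hold average log2 fold changes and p-values from the authors' Wilcoxon test over cells, which were not used. Tables of 4 fibroblast subclusters (15059 genes each, from a separate normalization) served as background. Cluster 16 was not analysed here.

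A gene was counted as higher or lower at 10 percentage points, as broadly shared where at least 9 of 17 other tables listed it with the same sign, and as listed alone where none did. Named genes were the 12 largest differences in each direction, the 6 largest among genes listed alone, the 6 most widely shared, listed genes of the gene lists, and genes of opposite sign in clusters 4, 8 or 10. The remaining ones were chosen after their values were seen. The values of some of these genes are not reported here. The cluster and the gene lists were chosen with earlier results of these data known. Symbols were matched to GENCODE vM39 on GRCm39 (401 of 421), and promoters to RefSeq on GRCm38.p6 (326 of 421); coordinates of the 2 builds were not mixed. Cell numbers and depth per cluster are not stated in the tables, and counts were not inferred from the decimals of the fractions, so no interval or detection limit is given, and no test was made. The counting steps were tested on simulated data. Python 3.11.15, pandas 2.3.3, numpy 2.4.6 and matplotlib 3.10.9 were used.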

Additional observations from a re-analysis of the deposited data

Results flagged for a closer look

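In 14 pairs of a gene and a T cell cluster, the difference had opposite signs in cluster 7 and in the other cluster, each of at least 10 percentage points, and the differences lay at least 35 points apart, a limit chosen after the values were seen. The difference between clusters was not tested, since each holds the same 2 libraries with no replicates. With cluster 4 the gene was Znrf1, an E3 ubiquitin ligase, lower by 11.4 points in cluster 7 and higher by 24 in cluster 4, a gap of -35.4 points.

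The other 13 were with cluster 10. From proliferation markers in clusters 6 and 10, the study proposes a population of dividing T cells. Zap70 had shares of 47.5% and 36.5% in cluster 7 but 0% and 48.4% in cluster 10, a gap of -59.4 points. Pttg1, the securin of mitosis, had 11.1% and 30.2% in cluster 7 and 63.6% and 23.7% in cluster 10, a gap of 59 points. H2-Q6 had a gap of 45.7 points. The remaining gaps, all negative, were -42 points for Ndufab1, -41 for Tmem123, -40.1 for Psip1, -38.4 for Atxn7l3b, -38.2 for Suclg1, -36.4 for Tet3, -35.8 for Cuta, -35.4 for Psmd13, and -35.3 for both Bag1 and Ddost. The control shares of cluster 10 took 12 distinct values over all its genes, where those of cluster 7 took 94, so these gaps rest on a coarse scale in the control library. In 5 of the 14 pairs, those of Zap70, Pttg1, H2-Q6, Tmem123 and Tet3, the gene reached 25% of cells in one library alone in cluster 10, and Pttg1 and Tet3 did so in cluster 7 too, so that limit of the tables fixed those signs.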

How the results depend on the processing

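No paired analysis was possible because there was 1 library per genotype, and no library could be left out for the same reason. The count of 188 genes lower by at least 10 points became 23 at 20 points, 110 at a log2 ratio of shares of 0.5, 35 when centred on the median difference, and 75 among genes with a share of 50% or more in one of the libraries. The count of 76 higher genes became 22 at 20 points and 28 at shares of 50% or more. When centred, 108 were higher. The 24 broadly shared genes became 86 with 5 tables, 12 with 12 tables and 51 in either direction, while the 36 genes listed alone stayed within 1.5 times. Centring turned the median of the actin genes from -0.75 to 7.75 points and that of the adhesion genes from -1.45 to 7.05. It moved the medians of T cell identity to 9.4, receptor signalling to 17.6, activation to 15.2, interferon-stimulated genes to 18.05, ribosomal proteins to 8.5 and the respiratory chain to -1.4, from -9.9. As means, T cell identity gave 2.68 points, receptor signalling 3.36, activation 3.53, adhesion -3.54, actin -1.25 and ribosomal proteins -0.06. Centring also turned 22 of 140 named genes from lower to higher, none of them past 10 points, with Actr3 at 7.6, Ahnak 7.1, Arpc1b 7.9, Arpc2 7.2, Arpc3 6.7, Calr 5.3, Capzb 6.5, Cd3d 7.5, Crip1 7.9, Ftl1 7.9, Ikzf2 2.9, Jund 3.6, Lgals1 4.8, Lgals3 7, Ms4a4b 7.4, Pkm 5.4, Rapgef6 0.6, Rhoa 2.6, S100a4 3.1, S100a6 7.7, Tyrobp 7.5 and Vim 8.3. None of the 140 changed direction on the ratio scales.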
